A study of Mus musculus with 12 samples.

Results

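The response of mouse embryonic fibroblasts (MEFs, connective tissue cells grown from embryos) to 8 h at 1% oxygen was measured by comparing 2 arrays of TAp73+/+ cells kept at 1% oxygen for 8 h with 2 arrays of TAp73+/+ cells left untreated at 21% oxygen. These are 4 of the study's 12 Illumina mouse bead arrays, taken by their labels alone, and the comparison covers the 10873 genes detected on both arrays of at least 1 of the study's 6 groups, of 19057 genes with a named probe. The TAp73+/+ cells carry the transactivating isoforms of p73, a p53-family transcription factor encoded by Trp73, and the cells labelled TAp73-/- are given as lacking them. Further groups used here for reference are TAp73+/+ cells after 4 h at 1% oxygen and cells labelled TAp73-/-, untreated and after 8 h at 1% oxygen, with 2 arrays each. All cells were grown in DMEM with serum and were not given any other agent per the labels. The labels do not tell if replicate arrays came from different cultures or how many MEF lines stand for a genotype, so p-values measure the spread between arrays, and genotype and line cannot be told apart.

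Levels are normalised log2 signals, and a change is the log2 difference of the 8 h mean minus the untreated mean ± the standard error (SE) of the model fitted with limma to all 12 arrays, with n = 2 arrays per group. A change of 1 is a 2-fold change. The targeted gene was read first. The only Trp73 probe was detected on none of the TAp73+/+ arrays, where its signals were 4.72 and 4.79 (untreated), 4.46 and 4.49 (4 h of hypoxia) and 4.86 and 4.41 (8 h of hypoxia). On the arrays labelled TAp73-/- its untreated signals were 5.29 and 4.75, those of 4 h were 6.01 and 5.72, and those of 8 h were 5.95 and 6.49, and 5 of these 6 arrays detected it. The signal was thus higher, not lower, under the TAp73-/- label in hypoxia, which goes against the label unless the probe lies outside the deleted part, and the probe's position is not given in the sources used here. A gene was called when its Benjamini-Hochberg adjusted p over all 10873 genes was below 0.05. Mean signal was 557 and 608 on the untreated arrays and 533 and 507 at 8 h, and 42.8% to 43.8% of probes were detected on the 4 arrays. Replicates correlated at 0.995 (untreated) and 0.997 (8 h). Of 12 fibroblast markers, Vim, P4hb, Thy1, Pdgfra and Pdgfrb were detected on all 4 arrays, whereas Col1a1, Col1a2, Col3a1, Fap, Dcn and Lum were detected on none. The labelled cell type was therefore borne out by part of its markers only. Of 8 epithelial markers, 4 were detected on all 4 arrays, and the summed level of the list was 12.40 and 12.42 on the untreated arrays and 13.11 and 13.13 at 8 h. Endothelial and macrophage markers were mostly undetected, with Pecam1, Tek, Ptprc and Adgre1 among those detected on none of the 4 arrays. Of 7 skeletal muscle markers, 4 were detected on all 4 arrays, and Myod1, Myf5 and Acta1 on none. Of the 4 muscle markers tested, 2 were called lower at 8 h. Detection on all 4 arrays was found for 2 of 7 neural and 0 of 4 erythroid markers. In bulk RNA, fewer cells of a type and less RNA per cell cannot be told apart.

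Cells sense oxygen through hydroxylases that need it as a substrate. The Egln prolyl hydroxylases mark the alpha subunits of hypoxia-inducible factor (HIF) for destruction through the Vhl ubiquitin ligase, and as oxygen falls the subunits escape, pair with Arnt and bind DNA at the core letters ACGTG or GCGTG. HIF target genes are known to raise glucose uptake and glycolysis, to hold pyruvate back from mitochondria, to recruit blood vessels and to rebuild the secreted matrix, while proliferation and macromolecule synthesis are slowed.

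The core letters were searched for on both strands in the 250 bases before the annotated start of each gene (RefSeq, GRCm38.p6). At least 1 ACGTG was found in 16.6% of all 32851 windows and in 21.9% of the 11324 windows of genes tested. It was found in 339 of the 1400 windows of genes called higher (24.2%), in 299 of the 1356 of genes called lower (22.1%) and in 55 of the 181 of genes called higher by at least 1 (30.4%). ACGTG or GCGTG was found in 38.6% of all windows, 56% of those of genes tested and 64.6% of those of genes called higher by at least 1. Mean GC content was 53.2% over all windows, 59.9% over those of genes tested and 61.2% over the last group, and its part in these shares was not tested. The windows below belong to called genes of the glycolytic, lactate export, HIF feedback, glycogen and clock lists with at least 2 ACGTG matches. They were chosen among such genes after their values were seen, as examples of each list, and others such as Cited2, Pgm1 and Per1 also have a window with 2 matches. They are printed 5′ to 3′ with every ACGTG or GCGTG on either strand in capitals. CACGTG reads as ACGTG on both strands and counts as 2 matches.
Ldha (chr7:46845554-46845803, plus strand): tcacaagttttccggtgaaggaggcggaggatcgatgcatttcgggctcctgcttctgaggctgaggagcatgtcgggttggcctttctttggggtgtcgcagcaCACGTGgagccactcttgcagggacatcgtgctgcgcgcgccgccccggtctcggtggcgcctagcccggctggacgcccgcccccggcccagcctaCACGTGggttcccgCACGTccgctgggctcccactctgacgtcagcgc
Pgk1 (chrX:106186850-106187099, plus strand): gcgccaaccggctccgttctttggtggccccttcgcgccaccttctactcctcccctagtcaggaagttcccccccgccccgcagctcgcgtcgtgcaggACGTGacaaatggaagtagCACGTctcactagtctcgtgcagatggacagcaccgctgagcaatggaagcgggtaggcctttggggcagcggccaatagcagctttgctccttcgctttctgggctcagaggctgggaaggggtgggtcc
Slc16a3 (chr11:120948817-120949066, plus strand): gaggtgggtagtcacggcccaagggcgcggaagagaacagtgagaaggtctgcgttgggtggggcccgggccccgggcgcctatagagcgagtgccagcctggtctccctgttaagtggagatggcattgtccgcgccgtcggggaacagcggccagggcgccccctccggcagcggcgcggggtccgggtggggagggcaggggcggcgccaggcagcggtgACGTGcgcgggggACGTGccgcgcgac
Ankrd37 (chr8:45999851-46000100, minus strand): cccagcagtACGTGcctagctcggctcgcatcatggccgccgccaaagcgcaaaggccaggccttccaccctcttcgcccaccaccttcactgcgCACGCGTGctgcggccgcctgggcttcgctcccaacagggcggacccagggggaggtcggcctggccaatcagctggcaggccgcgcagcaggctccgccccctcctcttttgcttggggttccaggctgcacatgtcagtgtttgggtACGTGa
Ppp1r3c (chr19:36736605-36736854, minus strand): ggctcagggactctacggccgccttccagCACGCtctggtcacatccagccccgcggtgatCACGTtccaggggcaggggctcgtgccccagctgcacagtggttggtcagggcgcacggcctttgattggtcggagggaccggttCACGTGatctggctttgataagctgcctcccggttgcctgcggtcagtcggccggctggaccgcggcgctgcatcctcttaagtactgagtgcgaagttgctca
Ciart (chr3:95882229-95882478, minus strand): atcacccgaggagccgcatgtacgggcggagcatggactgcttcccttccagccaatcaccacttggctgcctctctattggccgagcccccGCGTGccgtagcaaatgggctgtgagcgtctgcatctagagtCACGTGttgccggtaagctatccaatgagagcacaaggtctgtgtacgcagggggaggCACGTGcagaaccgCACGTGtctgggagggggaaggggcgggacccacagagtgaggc
Ldha has 5 matches of ACGTG, and Ciart has 6. The window of Adm, the gene with the largest rise, holds 2 matches of GCGTG and none of ACGTG. A match is a description of these letters and does not show binding.

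At 8 h, 1262 genes (11.6% of 10873) were called higher and 1337 (12.3%) were called lower. The counts of called list members given below stand against these shares. Of these, 159 genes rose and 78 fell by at least 1. The median change over all genes was -0.024. The arrays of both groups did not overlap for 6824 genes (62.8%), which include all 2599 genes called. An unadjusted p below 0.05 was reached by 4103 genes. Without the quantile step the median change of all genes was -0.149, and the split was 794 higher and 2095 lower. Leaving out 8 h replicate 1 gave 653 higher and 559 lower, and leaving out 8 h replicate 2 gave 701 and 669. The 20 largest rises included secreted hormones, oxygen sensors and metabolic genes, and the 20 largest falls were clustered histone genes apart from Atf7ip and ND4L, as the plots of all genes and of the largest changes show. Smtnl2, Tmem74b and Tafa2 were also among the largest rises (2.89 ± 0.11, 2.69 ± 0.12 and 2.50 ± 0.17). Smtnl2 was undetected on both untreated arrays and at least 5.55-fold higher at 8 h, against the lowest signal among detected probes on each untreated array.

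**Figure D1:**
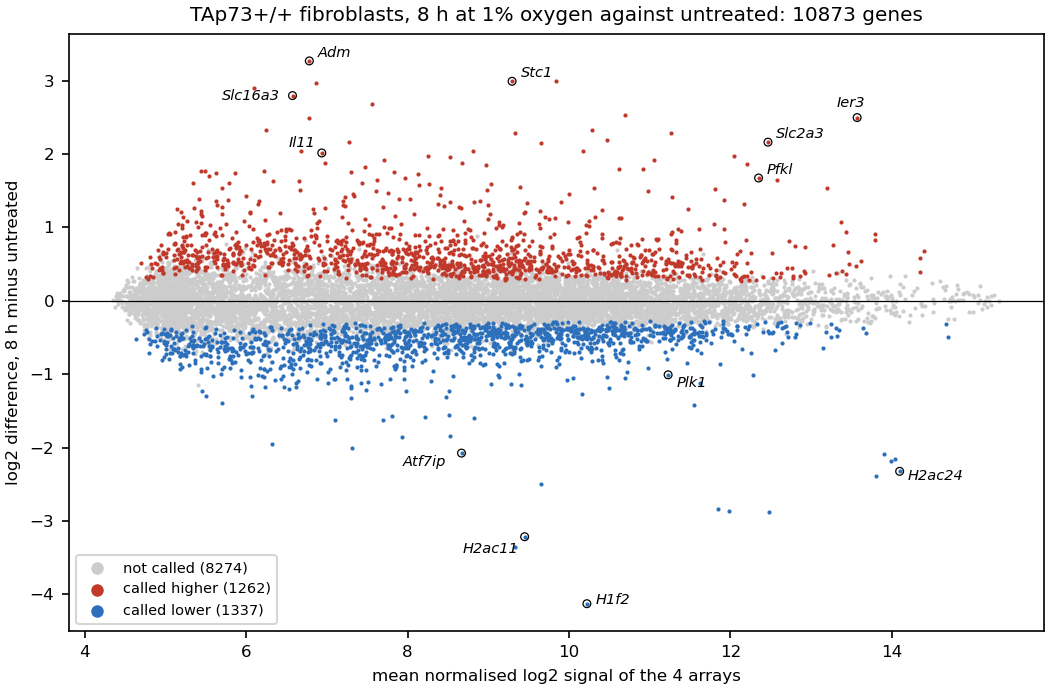
Change at 8 h (log2 difference, 8 h minus untreated, y axis) against the mean normalised log2 signal of the 4 TAp73+/+ arrays (x axis) for each of 10873 genes, with 1262 called higher in red, 1337 called lower in blue and the rest in grey. Rises reach 3.27 (Adm), and the falls below -2 are histone genes, down to -4.13 (H1f2), apart from Atf7ip at -2.08.

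**Figure D2:**
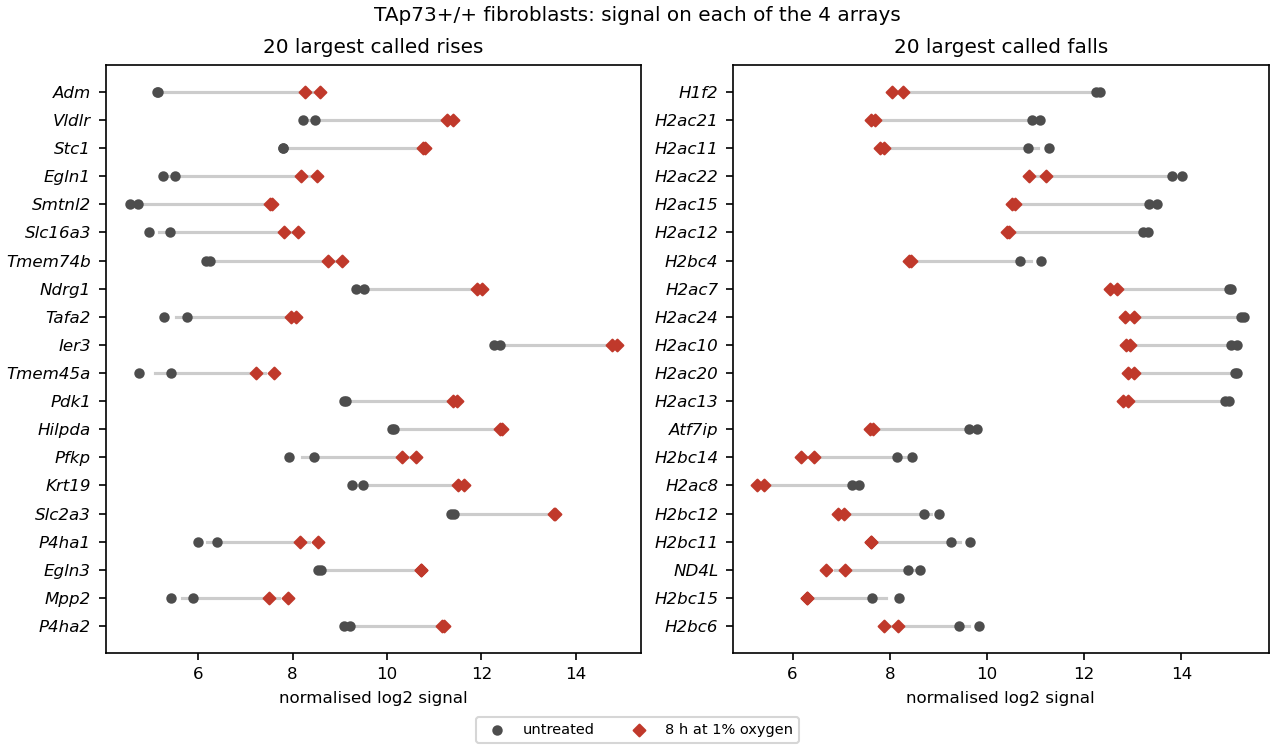
Normalised log2 signal (x axis) on each of the 2 untreated (grey circles) and 2 8 h arrays (red diamonds) of TAp73+/+ cells for the 20 largest called rises and the 20 largest called falls. Grey lines join the group means. The genes were picked among called genes whose arrays do not overlap, so the gap between the groups was set by that choice.

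A technical measure also moved with the groups. Where a gene has several probes, the probes can disagree, and the first principal component of that disagreement (11589 probes of 4571 genes, 50.2% of its variance) gives each array a probe score. The score was 0.590 and 0.386 on the untreated arrays, -0.076 and -0.104 at 4 h, and it was 0.193 and 0.302 on those of 8 h. A fit that took this score as covariate called 446 genes (4.1%) higher and 325 (2.99%) lower at 8 h, and the median SE rose from 0.127 to 0.188. Of the 2599 genes called, 672 were also called in that fit, and 7 had the opposite sign there. Among called genes with more than 1 probe, all probes had the same sign in 817 of 1152.

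The oxygen-sensing genes themselves were among those that moved most. Of 12 tested HIF subunits, oxygen sensors and feedback genes, 7 were called higher and none lower, with a median of 0.76. Egln1, the main HIF prolyl hydroxylase, had signals of 5.51 and 5.25 untreated and 8.52 and 8.19 at 8 h, a change of 2.97 ± 0.18 (adjusted p = 2.0e-06). Egln3, a prolyl hydroxylase of the same family, went from 8.54 and 8.61 to 10.72 and 10.73, a change of 2.15 ± 0.091 (adjusted p = 1.6e-07). All 3 probes of each of these genes had the same sign. Ankrd37, a small ankyrin-repeat gene with ACGTG at both ends of its window, was at 7.47 and 8.00 untreated and at 9.70 and 9.51 at 8 h, a change of 1.87 ± 0.17. Cited2, which competes with HIF for its coactivators, changed by 0.98 ± 0.14. Hif3a, whose products can restrain HIF, changed by 0.93 ± 0.12 on its brightest probe, and its other probe had the opposite sign (-0.32 ± 0.18). Egln2, the remaining prolyl hydroxylase tested, was not called (-0.30 ± 0.13).

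Hif1a encodes the HIF subunit regulated mostly through protein stability, and its probes differed. The brightest probe had signals of 5.43 and 6.07 untreated and 6.66 and 6.05 at 8 h, which overlap, and its change of 0.60 ± 0.23 was not called (adjusted p = 0.077). With the probe score as covariate that change was -0.13 ± 0.23. The other probe past the filter went from 4.42 and 4.48 to 6.60 and 6.89, a change of 2.30 ± 0.13, but was not detected on either untreated array. No level of Hif1a RNA is given from these probes. Epas1, the HIF-2 alpha gene, was detected on none of the 12 arrays by either of its probes.

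Glycolysis was the list with the highest median. All 13 glycolytic enzymes tested were called higher, with a median change of 0.85 (range 0.33 to 2.28), and 9 were also called higher with the probe score as covariate. Pfkp, the platelet-type phosphofructokinase that commits glucose to glycolysis, had signals of 7.93 and 8.45 untreated and 10.62 and 10.32 at 8 h, a change of 2.28 ± 0.17 (adjusted p = 7.9e-06). The liver-type subunit Pfkl went from 11.61 and 11.41 to 13.23 and 13.14, a change of 1.67 ± 0.10. Aldoc, an aldolase, rose by 1.73 ± 0.091, from 7.25 and 7.28 to 8.99 on both arrays. The groups did not overlap for these enzymes, which holds for all 2599 genes called and for 62.8% of all genes tested. Hk1, which phosphorylates glucose on entry, changed by 1.58 ± 0.15. Pgk1, which makes ATP from bisphosphoglycerate, changed by 1.08 ± 0.12. Ldha, which regenerates NAD from pyruvate and whose window above holds 5 ACGTG matches, was already among the brighter genes at 13.99 and 14.14 and reached 14.66 and 14.83, a change of 0.67 ± 0.10 (adjusted p = 0.0012).

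Transporters at both ends of the pathway rose. Slc16a3, the lactate exporter MCT4, had signals of 5.40 and 4.95 untreated and 7.83 and 8.11 at 8 h, a change of 2.80 ± 0.15 (adjusted p = 6.5e-07). Before hypoxia only 1 array reached detection. Slc2a3, the glucose transporter GLUT3, rose from 11.42 and 11.35 to 13.56 and 13.53 (2.16 ± 0.12). Slc2a1, the glucose transporter GLUT1, rose from 11.74 and 11.77 to 13.41 on both arrays (1.65 ± 0.14). These were the only 3 of 8 glucose, lactate and proton transport genes called higher, and the median of that list was 0.04. Txnip, which restrains glucose uptake, was called lower (-0.57 ± 0.13), but not with the probe score as covariate. Its difference at 4 h was -1.76, and it was higher at 8 h than at 4 h by 1.19 ± 0.13.

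The kinases that close off mitochondrial pyruvate rose in part. Pdk1, which inactivates pyruvate dehydrogenase, had signals of 9.10 and 9.14 untreated and 11.49 and 11.40 at 8 h, a change of 2.33 ± 0.11 (adjusted p = 2.4e-07). Pdk3, a kinase of the same family, changed by 0.63 ± 0.11, and Pdp2, the phosphatase that opposes them, by -0.37 ± 0.096. The other 6 of the 9 Pfkfb and Pdk genes tested were not called. With the probe score as covariate 1 member was called higher and none lower. Of 44 nuclear-encoded oxidative phosphorylation subunits, 1 was called higher (2.27%) and 5 lower (11.4%), against 11.6% and 12.3% of all genes. Their median was -0.05, and with the probe score as covariate 1 was called lower. The largest fall among them was in Cox7b, a subunit of cytochrome c oxidase (-0.69 ± 0.20). Lonp1, the mitochondrial matrix protease that degrades damaged and unassembled proteins, rose from 9.18 and 9.28 to 10.57 on both arrays (1.34 ± 0.12). Bnip3l, a receptor for removal of mitochondria, changed by 1.05 ± 0.13. Among 7 mitochondrially encoded transcripts, ND4L fell from 8.37 and 8.63 to 6.69 and 7.07 (-1.62 ± 0.18) and ND4 fell by 0.49 on the log2 scale (SE 0.11), and the other 5 were not called. ND4L and ND4 encode subunits of complex I.

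Genes of both glycogen synthesis and glycogen breakdown were among those called higher. Of 11 tested, 7 were called higher and none lower, with a median of 0.62. Ppp1r3c, a targeting subunit that brings a phosphatase to glycogen and favours its synthesis, had signals of 5.26 and 5.41 untreated and 7.06 and 7.15 at 8 h, a change of 1.77 ± 0.14 (adjusted p = 1.1e-05). Ppp1r3b, a related subunit, rose from 7.50 and 7.43 to 8.95 and 9.16 (1.59 ± 0.12). Pgm1, which interconverts glucose phosphates, rose from 12.36 and 12.50 to 13.97 on both arrays (1.54 ± 0.092). Gys1, glycogen synthase, changed by 1.30 ± 0.20. Pygl, the liver-type phosphorylase that releases glucose from glycogen, was at 6.57 and 6.69 untreated and 8.13 and 7.98 at 8 h (1.42 ± 0.13), with a difference of 0.25 at 4 h and a direct 8 h against 4 h difference of 1.18 (adjusted p = 0.00058).

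Lipid genes moved in both directions. Vldlr, the very low density lipoprotein receptor, had signals of 8.21 and 8.48 untreated and 11.40 and 11.27 at 8 h, a change of 2.99 ± 0.14 with all 5 probes of the same sign. Hilpda, which blocks lipid droplet breakdown, rose from 10.10 and 10.14 to 12.39 and 12.43 (2.29 ± 0.088). Both were among the largest rises. Of the 12 tested genes of lipid droplets and lipid uptake, 4 were called higher and 2 lower (median 0.18). The lower ones were Fabp5, a fatty acid binding protein (-0.66 ± 0.14), and Plin3, a lipid droplet coat protein (-0.31 ± 0.094). With the probe score as covariate 2 members were called higher and none lower. None of 22 sterol and fatty acid synthesis genes was called higher and 7 were called lower, with a median of -0.35. Elovl6, which lengthens fatty acids, fell from 9.92 and 9.84 to 8.91 and 8.84 (-1.0 ± 0.11). The sterol enzymes Idi1 (-0.59 ± 0.12), Lss (-0.50 ± 0.14) and Sc5d (-0.49 ± 0.13) and the sterol regulator Tmem97 (-0.51 ± 0.095) were called lower by smaller amounts. With the probe score as covariate 3 were called lower, and the median of the list was -0.33.

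Secreted factors held the largest rise of all. Adm, which encodes the vasodilator peptide adrenomedullin, had signals of 5.14 and 5.16 untreated and 8.57 and 8.26 at 8 h, a change of 3.27 ± 0.18 (adjusted p = 7.2e-07). Stc1, encoding the glycoprotein hormone stanniocalcin, went from 7.79 and 7.81 to 10.77 and 10.81 (2.99 ± 0.11). Vegfa, the main growth factor for blood vessels, went from 9.78 and 9.65 to 11.52 and 11.50 (1.79 ± 0.089). In each of these genes the replicates were close together, and the groups did not overlap, as in every gene called. Pgf, a placental relative of Vegfa, was undetected untreated (4.59 and 4.63) and detected at 8 h (6.52 and 6.23), and was at least 2.48-fold higher, the bound being set as for Smtnl2. Of 24 vascular and growth factors, 10 were called higher and 2 lower (median 0.32), the 2 being Ptn (-0.44 ± 0.10) and Tgfb3 (-0.40 ± 0.10). With the probe score as covariate 6 were called higher and none lower.

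Several collagen-modifying enzymes rose, and few collagens and matrix glycoproteins were called. Of 9 collagen hydroxylases and lysyl oxidases, 5 were called higher and none lower (median 0.44). P4ha1 and P4ha2 are the catalytic subunits of collagen prolyl 4-hydroxylase. P4ha1 rose from 5.99 and 6.40 to 8.54 and 8.15 (2.16 ± 0.20), and P4ha2 from 9.21 and 9.10 to 11.17 and 11.21 (2.04 ± 0.091). Plod2, which hydroxylates collagen lysines for cross-linking, rose from 10.48 and 9.97 to 11.67 and 11.77 (1.49 ± 0.15). Their partner subunit P4hb changed by 0.54 ± 0.12. Among 15 collagens and matrix glycoproteins, Fn1, encoding fibronectin, was the only one called higher (1.04 ± 0.14), and Col18a1 the only one called lower (-0.44 ± 0.12). With the probe score as covariate 1 member was called higher and none lower. The median of that list was 0.00, and 3 defining collagens were undetected as given above. Of 16 matrix proteases and their inhibitors 3 were called higher (18.75%, against 11.6% of all genes). Among them Plau, the urokinase gene, had signals of 8.36 and 7.36 untreated and 9.12 and 9.27 at 8 h (1.34 ± 0.24), the untreated replicates lying a full unit apart.

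The 2-oxoglutarate-dependent demethylases, which use oxygen to remove methyl groups from histones or DNA, showed 8 of 19 called higher and 2 lower (median 0.31). Kdm3a, which removes a repressive methyl mark from histone H3, went from 10.03 and 10.13 to 11.17 and 11.25 (1.13 ± 0.12) with all 4 probes of the same sign. Kdm6b, which removes the mark laid down by Polycomb, went from 10.08 and 9.43 to 10.94 and 10.86 (1.14 ± 0.17). Kdm7a (0.91 ± 0.10), Kdm4b (0.77 ± 0.097) and Kdm4a (0.68 ± 0.19) were also called higher. Kdm8 (-0.72 ± 0.088) and Kdm6a (-0.39 ± 0.11) were called lower. With the probe score as covariate 6 members were called higher and 1 lower.

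Stress and growth-restraint genes moved in part. Of 20 ATF4 and CHOP stress genes, 9 were called higher and 1 lower (median 0.36), and with the probe score as covariate 4 and 0. Trib3, a pseudokinase induced by ATF4 and CHOP, went from 7.22 and 7.31 to 9.19 and 9.29 (1.98 ± 0.11), and Ddit3, which encodes CHOP, from 8.00 and 8.29 to 9.58 and 9.41 (1.35 ± 0.14). Wars, a tryptophan tRNA synthetase, was called lower (-0.52 ± 0.090). Endoplasmic reticulum chaperones and folding enzymes showed 3 of 16 called higher (18.75%) and 1 lower (6.25%), against 11.6% and 12.3% of all genes. None was called with the probe score as covariate. Ddit4, which restrains the growth kinase mTOR, went from 11.22 and 10.87 to 12.55 and 12.60 (1.53 ± 0.12). Eif4ebp1, a brake on translation that mTOR releases, changed by 0.82 ± 0.13. Of 15 mTOR restraint genes, 6 were called higher and 1 lower. The lower one was Ddit4l, which went from 10.41 and 10.43 to 9.65 and 9.76. With the probe score as covariate 1 member was called higher and 1 lower. Of 9 serine and one-carbon enzymes 4 were called higher and 2 lower. Phgdh, the first enzyme of serine synthesis, had widely spaced replicates at 8 h (9.03 and 8.32, against 7.20 and 7.79 untreated), a change of 1.18 ± 0.23 that was 0.43 and not called with the probe score as covariate.

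Clock genes rose in part. Ciart, a clock repressor whose window holds 6 ACGTG matches, went from 6.79 and 6.70 to 8.60 and 8.73 (1.92 ± 0.13). Rora, a nuclear receptor of the clock, went from 7.65 and 7.64 to 9.21 and 9.16 (1.54 ± 0.11). Dbp (1.15 ± 0.10), Bhlhe40 (0.94 ± 0.095) and Per1 (0.69 ± 0.15) completed the 5 of 13 called higher, and none was called lower. All 5 were also called with the probe score as covariate.

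A number of chemokine and cytokine genes rose. Over all genes, 937 (8.62%) were called higher and 568 (5.22%) lower at 8 h than at 4 h. Of 15 chemokines and cytokines, 8 were called higher and 1 lower at 8 h against untreated (median 0.62), and 9 were called higher at 8 h than at 4 h. Il11, a cytokine of the interleukin 6 family, had signals of 5.82 and 6.04 untreated and 8.03 and 7.85 at 8 h (2.01 ± 0.14), and its difference was 0.47 at 4 h. Cxcl2, a neutrophil attractant, went from 7.15 and 7.11 to 8.81 and 8.80 (1.67 ± 0.098), with 0.38 at 4 h. Cxcl1, a related attractant, went from 10.76 and 10.94 to 12.06 and 12.15 (1.25 ± 0.10), with 0.06 at 4 h. The direct 8 h against 4 h differences of these 3 were 1.55, 1.29 and 1.19 (adjusted p = 0.00022, 8.7e-05 and 0.00022). None of these 3 differences was called with the probe score as covariate. Tnfaip3, which shuts off NF-kappaB signalling and is itself a target of it, changed by 1.63 ± 0.14, and Nfkbia, the inhibitor of NF-kappaB, by 0.96 ± 0.12. Of 14 NF-kappaB subunits and feedback genes, 4 were called higher and 1 lower, and with the probe score as covariate 2 and 0.

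Many early transcription factors rose as well. Of 22 AP-1 and other early factors, 13 were called higher and 1 lower (median 0.57), and 10 were called higher with the probe score as covariate. Ier3, a stress gene of the immediate early class, was the brightest of the 20 largest rises, at 12.39 and 12.26 untreated and 14.76 and 14.87 at 8 h (2.50 ± 0.10). Atf3, a stress-induced repressor, went from 7.70 and 7.87 to 9.88 and 9.76 (2.03 ± 0.12), with 0.88 at 4 h. Fosb, an AP-1 subunit, went from 7.04 and 6.87 to 8.82 and 8.61 (1.76 ± 0.15), with 0.64 at 4 h. Klf2, a zinc finger factor associated with quiescence, went from 6.89 and 7.16 to 8.57 and 8.43 (1.47 ± 0.11), with -0.02 at 4 h. Each of the last 3 was called higher at 8 h than at 4 h, and with the probe score as covariate Klf2 alone of them was. Fos changed by 1.22 ± 0.16, and Ier2 was the member called lower (-0.83 ± 0.19). Among the MAP kinase phosphatases that switch off this signalling, 5 of 10 were called higher and none lower, led by Dusp1 (1.79 ± 0.11) and Dusp8 (1.44 ± 0.13). YAP and TEAD targets showed 6 of 12 called higher and none lower (median 0.41), and 2 higher with the probe score as covariate. They were led by Ankrd1, a cardiac ankyrin repeat gene, at 9.47 and 9.61 untreated and 11.24 and 10.92 at 8 h (1.54 ± 0.12).

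The calls at 8 h against 4 h depended on the probe score, which lay lower on both 4 h arrays than on both 8 h arrays. With the score as covariate, 4 genes were called higher and 1 lower at 8 h than at 4 h by limma, and 1015 genes had an unadjusted p below 0.05. The 5 genes were Klf2 and H1f2 and, chosen after their values were seen, Ccl2, Mycl and Tenm4. Leaving out 1 of the 4 arrays compared at a time gave 182 to 429 higher and 98 to 265 lower, with fewer than the full set for each array. With the covariate Klf2 differed by 1.72 ± 0.21 and H1f2 by -1.78 ± 0.22, against 1.49 and -1.70 without it. The 8 h against 4 h differences given for Txnip and Pygl were not called with it. A lost call does not show that a difference became smaller, and the part of larger standard errors was not tested.

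**Figure D3:**
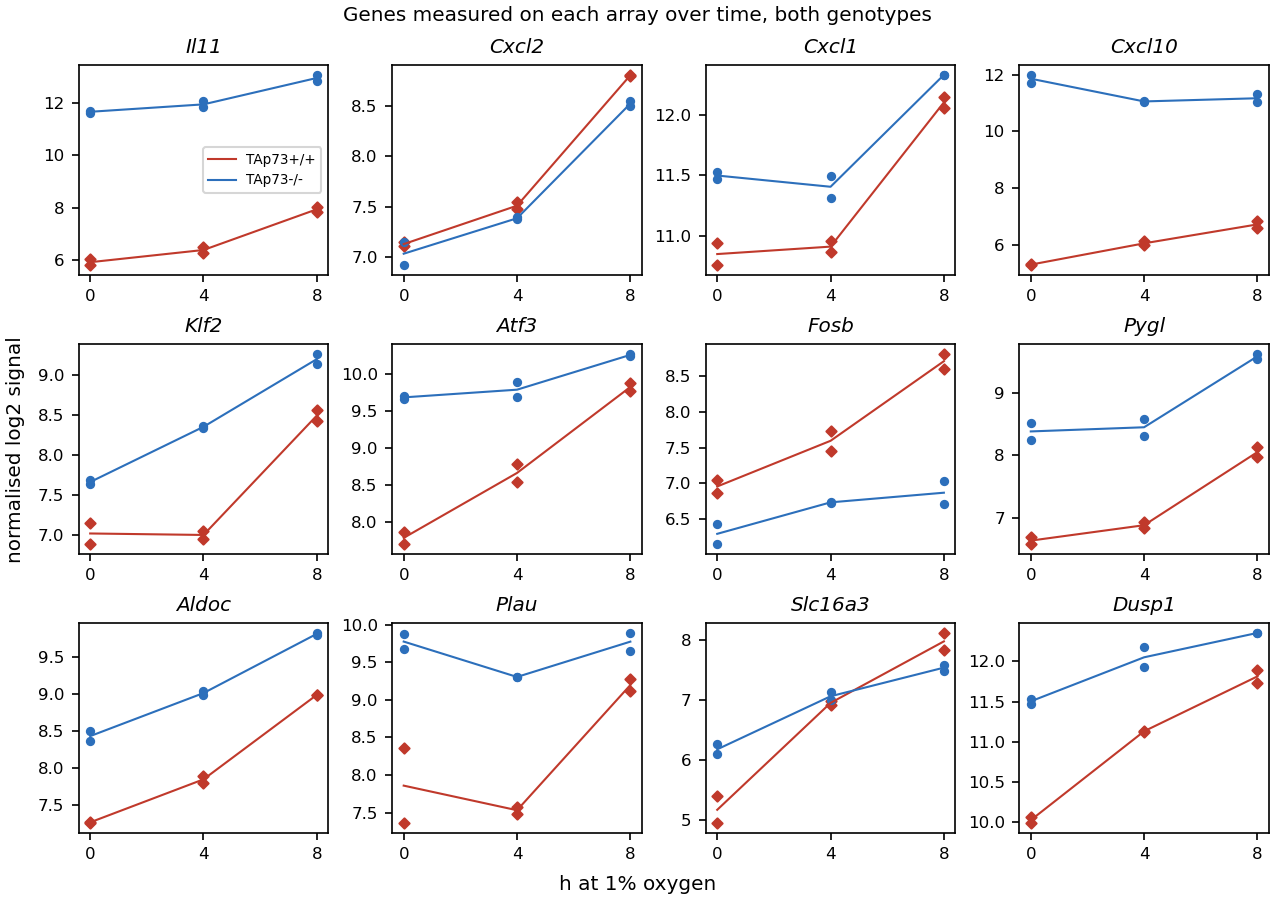
Normalised log2 signal (y axis, own scale in each panel) against hours at 1% oxygen for 12 genes, with points for the 2 arrays of each group and lines through their means, TAp73+/+ in red and cells labelled TAp73-/- in blue. In TAp73+/+ cells Klf2 and Cxcl1 lie near the untreated level at 4 h and above it at 8 h, and Cxcl10 and Slc16a3 have different slopes under the 2 labels.

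The largest falls were in the clustered histone genes, which are transcribed for DNA packaging in S phase and whose mRNAs end in a stem-loop in place of a poly(A) tail. Of 47 tested, 41 were called lower and none higher, with a median of -1.12, and 34 were called lower with the probe score as covariate. H1f2, a linker histone, had signals of 12.24 and 12.33 untreated and 8.04 and 8.28 at 8 h, a change of -4.13 ± 0.11 (adjusted p = 9.1e-09). H2ac11, an H2A gene, went from 10.84 and 11.27 to 7.88 and 7.81 (-3.21 ± 0.13). H2ac24, among the brightest genes on the array, went from 15.30 and 15.22 to 12.85 and 13.02 (-2.32 ± 0.10). In each of them both 8 h arrays lay far below both untreated arrays. Genes of one histone family have nearly identical copies, so their probes may share signal and the members are not independent. The labelling kit is primed on poly(A) tails in its usual form, so these probes may read the polyadenylated part of histone RNA, and this was not tested.

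The 5 histone families are given side by side, and differences between them were not tested. Among H2A genes 14 of 15 were called lower at 8 h with a median of -2.19, and the median was already -1.69 at 4 h. All 9 H2B genes were called lower with a median of -1.62, against -0.33 at 4 h. The direct 8 h against 4 h comparison called all 9 H2B genes and 11 of 15 H2A genes lower at 8 h, and with the probe score as covariate none of these. Of 12 H4 genes 9 were called lower (median -0.80), and of 9 H3 genes 7 (median -0.55). The exception among H2A genes was H2ac1, which was dim and not called (0.18 ± 0.16). The median untreated level was 13.26 for the H2A genes and 6.49 for the H4 genes.

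**Figure D4:**
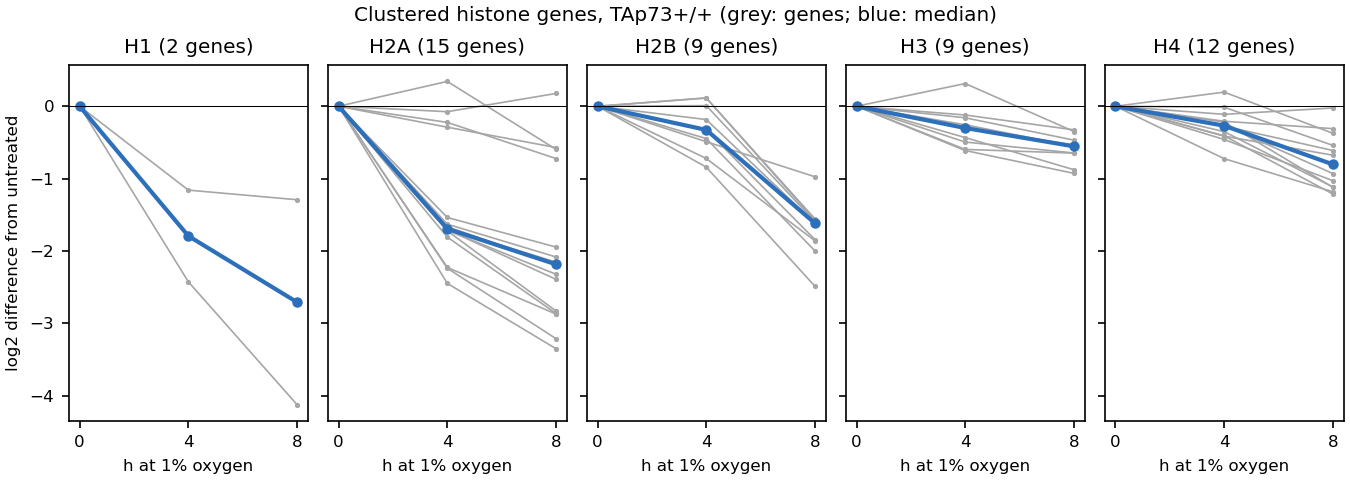
Log2 difference from untreated (y axis) at 0, 4 and 8 h at 1% oxygen (x axis) in TAp73+/+ cells for 47 clustered histone genes in 5 panels by family, each gene in grey and the family median in blue. The H2A median is at -1.69 by 4 h, whereas the H2B median is at -0.33 at 4 h and at -1.62 at 8 h.

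The DNA of H1f2, the deepest fall, and of a gene pair that joins an H2A to an H2B gene is shown here. H2ac11 and H2bc11 are transcribed away from each other, and the 248 bases between their starts hold both promoters. H2ac11 differed by -2.24 at 4 h and -3.21 at 8 h. H2bc11 had signals of 9.25 and 9.65 untreated and 7.61 and 7.60 at 8 h, and differed by -0.33 at 4 h and -1.84 at 8 h. In the H1f2 window the capitals mark AAACACA, the letters of the linker histone promoter element, and CCAAT, and in the shared region they mark CCAAT, on either strand in both.
H1f2 (chr13:23738557-23738806, plus strand): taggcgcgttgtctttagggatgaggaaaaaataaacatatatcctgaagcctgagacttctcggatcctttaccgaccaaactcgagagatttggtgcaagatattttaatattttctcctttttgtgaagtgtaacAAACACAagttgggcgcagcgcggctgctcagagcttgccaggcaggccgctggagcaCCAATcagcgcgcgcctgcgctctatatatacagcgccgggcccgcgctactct
H2ac11 to H2bc11 (chr13:22042950-22043197, minus strand): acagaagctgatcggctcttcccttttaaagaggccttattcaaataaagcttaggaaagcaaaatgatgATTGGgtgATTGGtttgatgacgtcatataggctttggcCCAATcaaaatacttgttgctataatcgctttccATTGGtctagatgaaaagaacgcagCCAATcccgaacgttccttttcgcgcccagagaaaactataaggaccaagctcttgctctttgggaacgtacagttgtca
The shared region holds 5 matches of CCAAT. At least 1 CCAAT lies in 34 of the 43 windows of the histone genes tested (79.1%), in 35.4% of the windows of genes tested and in 33.8% of all windows. AAACACA lies in 11.6% of the histone windows and in 6.25% of all windows.

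Many mitosis genes were also called lower, and few DNA replication genes were. H2ax, the variant histone that marks DNA breaks and is made with either mRNA end, went from 12.39 and 12.13 to 10.85 and 10.83 (-1.42 ± 0.10). Of 14 variant histones and histone mRNA processing genes, 5 were called lower, the list's median was 0.00, and with the probe score as covariate 1 was called lower. Mitosis genes showed 18 of 28 called lower and 1 higher (median -0.51), and with the probe score as covariate 8 were called lower with a median of -0.45. Cdc20, which activates the anaphase-promoting complex, went from 12.13 and 12.25 to 11.08 and 11.07 (-1.11 ± 0.10). Plk1, the polo kinase of mitotic entry, went from 11.66 and 11.80 to 10.71 and 10.74 (-1.01 ± 0.098). Cenpf, a kinetochore protein, went from 7.70 and 8.06 to 6.65 and 6.79 (-1.16 ± 0.13). Top2a was the member called higher (0.49 ± 0.099), and its other 2 probes had the opposite sign. Of 40 DNA replication genes, 9 were called higher and 1 lower (median 0.14), and with the probe score as covariate 1 was called higher (median 0.12). Mcm3, a helicase subunit, had a change of 0.93 ± 0.19 that was 0.34 and not called in that fit.

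Atf7ip, a partner of the histone methyltransferase SETDB1, was the largest fall outside the histone genes, from 9.62 and 9.79 to 7.66 and 7.60 (-2.08 ± 0.15), with both of its probes of the same sign. Interferon-stimulated genes showed 10 of 33 called lower and 2 higher (median -0.14), and with the probe score as covariate 4 and 0. Usp18, which removes ISG15 from proteins and damps interferon signalling, went from 7.02 and 7.23 to 5.72 and 6.15 (-1.20 ± 0.15), and Gbp2, a guanylate-binding protein, from 7.01 and 7.10 to 5.73 and 6.03 (-1.18 ± 0.13). The other Gbp2 probe was dim and changed by 0.06 ± 0.14. Cxcl10, a chemokine that interferon also induces, went the other way, from 5.27 and 5.31 to 6.83 and 6.59 (1.42 ± 0.13).

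Further lists are given by their counts, against 11.6% of all genes called higher and 12.3% called lower. Of 55 cytosolic ribosomal proteins, 2 were called higher and 2 lower (median 0.08). Splicing factors of the hnRNP and SR families had 5 of 32 called higher and 8 lower, and with the probe score as covariate 1 higher and 0 lower. In p53-family target genes 5 of 24 were called higher and 1 lower (median 0.09), led by Gadd45a, a growth arrest gene (0.89 ± 0.13). With the probe score as covariate these counts were 1 and 0. NRF2 targets had 2 of 11 called higher and 1 lower, and Hox cluster genes 2 of 25 higher and 5 lower. With the probe score as covariate no NRF2 target was called, and 2 Hox genes were called higher and 1 lower. Of 8 keratin and junction genes 3 were called higher, with Krt19, a simple epithelial keratin, going from 9.26 and 9.50 to 11.62 and 11.50 (2.18 ± 0.16). Epcam, Krt5 and Krt14 were detected on none of the 4 arrays, and the part of epithelial-type cells in the Krt19 rise was not tested.

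**Figure D5:**
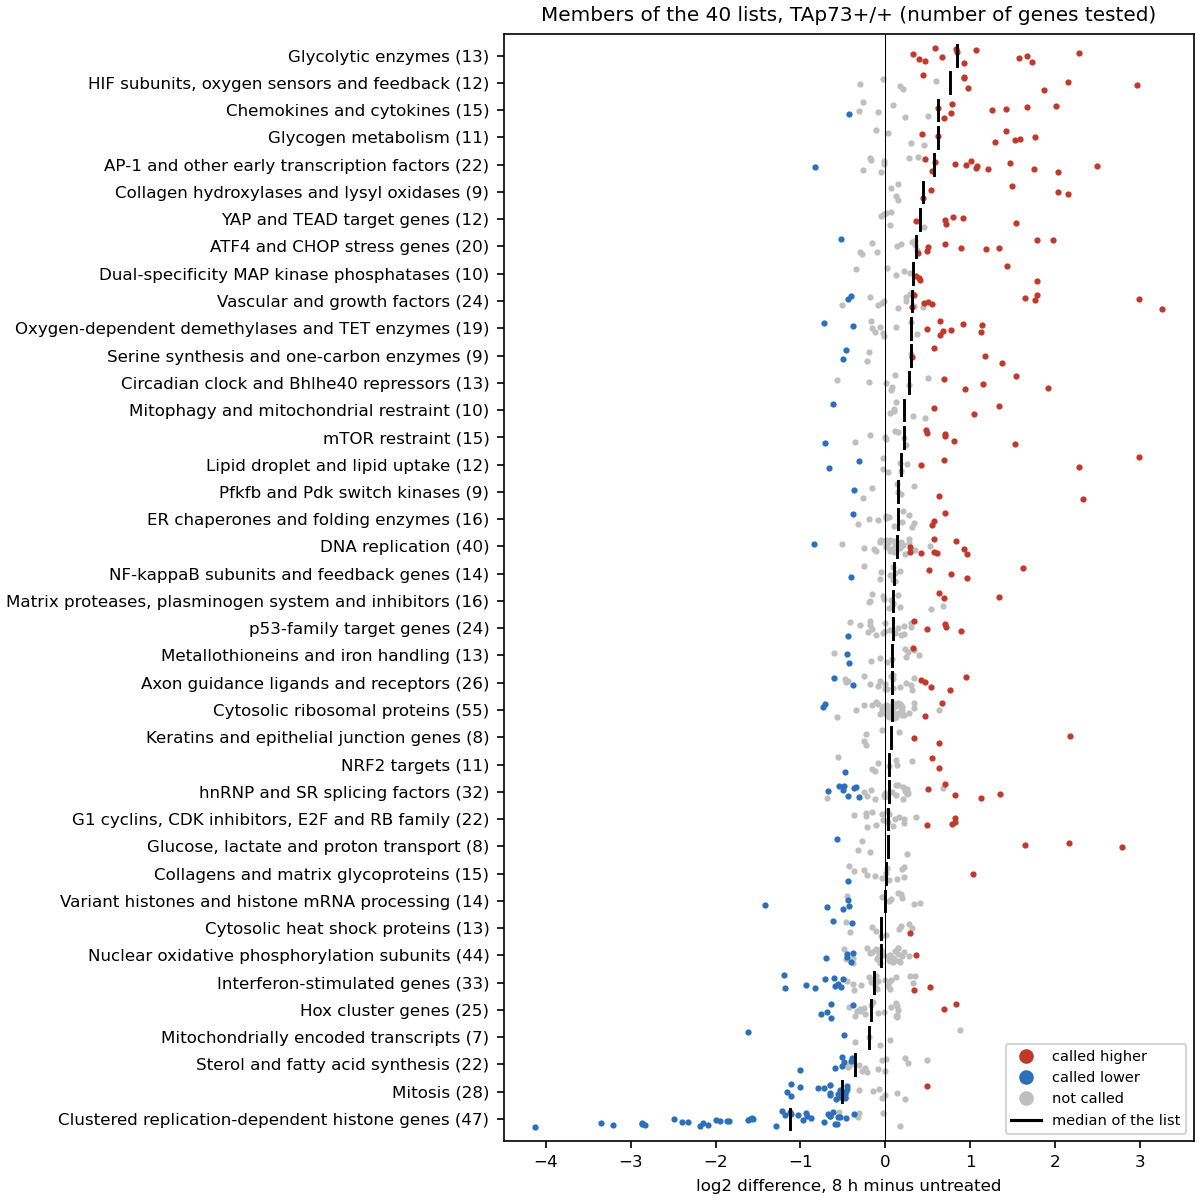
Change at 8 h (x axis, log2 difference, 8 h minus untreated) of each tested member of 40 gene lists in TAp73+/+ cells, with genes called higher in red, called lower in blue and not called in grey, and a black bar at each list's median. Medians run from 0.85 for glycolytic enzymes to -1.12 for clustered histone genes.

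Whether the 8 h change differed in cells labelled TAp73-/- was tested as the difference between the 2 responses, TAp73-/- minus TAp73+/+. Its direction rests on labels that the Trp73 probe did not bear out. That probe was detected on none of the TAp73+/+ arrays, so it could not show a loss, and its position is not given. It was called for 52 genes (0.478%), 23 with a more positive and 29 with a more negative change under the TAp73-/- label, and 1623 genes had an unadjusted p below 0.05. Slc16a3 changed by 2.80 in TAp73+/+ and by 1.36 in cells labelled TAp73-/-, a difference of -1.44 ± 0.21 (adjusted p = 0.021). Its untreated mean was 6.18 under the TAp73-/- label against 5.18 in TAp73+/+ cells. Cxcl10 changed by 1.42 and -0.69, a difference of -2.11 ± 0.19 (adjusted p = 0.0028), from an untreated mean of 5.29 in TAp73+/+ and 11.86 under the TAp73-/- label. Atf3 changed by 2.03 and 0.57 (difference -1.46 ± 0.17), and Ankrd1 by 1.54 and 0.36 (difference -1.18 ± 0.16). Untreated signals of Atf3 were 7.70 and 7.87 in TAp73+/+ cells and 9.66 and 9.70 under the TAp73-/- label. Those of Ankrd1 were 9.47 and 9.61 against 12.75 and 12.88. At 8 h both genes were still higher under the TAp73-/- label. Among histone genes 6 of 47 were called, all H2A genes that fell less under the TAp73-/- label, such as H2ac11 (-3.21 and -2.02). The Egln1 (2.97 and 1.97) and Adm (3.27 and 2.79) responses were not called for a difference. With the probe score as covariate 5 genes were called more positive and 3 more negative by limma, and 1394 had an unadjusted p below 0.05. Of the genes named here Slc16a3, Cxcl10 and H2ac11 were among these 8, and the others, Espn, Galr2, Lims2, Unc13a and Ifi47, are given as chosen after their values were seen. With the replicate number as a block, 10 and 14 genes were called, and leaving out 1 of the 8 arrays at a time gave 4 to 15 and 5 to 20.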

How the data were processed

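Total RNA of the cells was converted to biotinylated cRNA and hybridised to Illumina mouse bead arrays, per the labels' protocols. Per the file headers, the deposited table pairs every intensity value with a detection p-value, without normalisation, for 45281 probes and 12 arrays. A processed intensity table, credited to Partek without a version in the submitters' processing notes, was deposited as well. On every array it ranks the probes as the raw table does and has a median of 71.5, and it served as an alternative.

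Normalised log2 values were computed from the signals with limma 3.58.1 in R 4.3.3 (function neqc: normexp background estimated through detection p-values, then an added 16 and a quantile step). Probes with a detection p below 0.05 on both arrays of at least 1 of 6 groups were kept (21223, of which 17891 have 1 symbol). Symbols come from the platform annotation, updated through RefSeq on GRCm38.p6, and each gene is represented by its brightest probe. Of the genes tested, 4571 have more than 1 probe. Group means were estimated jointly on all 12 arrays by limma with empirical Bayes moderation (6 residual and 4.79 prior degrees of freedom), and the fit was tested on simulated data. The number of arrays limits the precision. Slide and scan date are not given in the sources used here.

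The genes named are Hif1a, Trp73, Trp53 (not analysed here), the 20 largest called rises and falls, up to 5 called members each way of each of 40 lists, and those of them called between 8 h and 4 h or between genotypes. The lists, comparisons and this rule were chosen with earlier results of these data known. Alternatives were other normalisations, filters, probe rules, thresholds, a replicate block, the probe score as covariate and leaving out each array. Figures were drawn with matplotlib.

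Same-numbered replicates were checked for pairing by correlating their deviations from the group means. The 15 correlations between groups ranged from -0.25 to 0.12, and -0.25 was that of the untreated and 8 h TAp73+/+ arrays. No pairing by number was seen, so the main fit has none, but such correlations cannot exclude a pairing.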

Additional observations from a re-analysis of the deposited data

Results flagged for a closer look

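Among the genes named, 24 had an 8 h change that differed between the genotype labels. The test was of the difference itself (limma, change under the TAp73-/- label minus TAp73+/+ change). Of these genes, 19 were named by the rule and 5 only because the fit with the probe score as covariate called them. With that covariate 8 of the 24 were called, and the 8 include those 5 by choice. The Trp73 probe did not bear out these labels, and as given above it could not show a loss. A negative difference is a less positive or more negative change under the TAp73-/- label. By limma without the covariate only, the difference was negative for 4 early or stress genes. It was -1.46 for Atf3, -1.18 for Fosb, -0.94 for Dusp1 and -1.32 for Chac1, a glutathione-degrading enzyme. Untreated signals under the TAp73-/- label were higher than in TAp73+/+ cells for Atf3, Dusp1 and Chac1 and lower for Fosb. Also in that fit only, the YAP and TEAD targets Ankrd1 (-1.18), Ccn1 (-1.0) and Ccn2 (-0.82) had negative differences. These targets encode an ankyrin repeat protein and matricellular proteins. The metalloprotease inhibitor Timp3 (-0.76) had one too. Slc16a3 differed by -1.44, Cxcl10 by -2.11 and ND4 by -1.06. ND4 fell under both labels, and more under the TAp73-/- label. Positive differences were found for 6 H2A genes, which fell under both labels, but less under the TAp73-/- label. They differed by 0.76 (H2ac10), 0.99 (H2ac12), 1.01 (H2ac24), 1.02 (H2ac7), 1.19 (H2ac11) and 1.44 (H2ac22). Hif3a differed by 0.94 and Lpin1, a phosphatidate phosphatase of lipid synthesis, by 0.90. Chosen after their values were seen, Lims2 differed by 1.88, Unc13a by 1.48, Espn by 1.43, Galr2 by 1.30 and the interferon-induced GTPase Ifi47 by -1.56. Of these 5, Espn alone was detected on untreated TAp73+/+ arrays.

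Probes with no single gene symbol were outside the comparison by gene. Of 3332 such probes past the detection filter, 303 were called higher and 350 lower at 8 h, 19.6% in all, with changes from -2.15 to 2.67.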

How the results depend on the processing

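Thresholds, the probe score, the quantile step and the arrays included moved the counts, and the cause was not tested. With the probe score as covariate, 446 genes were higher and 325 lower at 8 h than untreated, 4 and 1 at 8 h than at 4 h, and 5 and 3 differed between genotypes. Without the quantile step these pairs were 794 and 2095, 519 and 520, and 7 and 24. At an adjusted p below 0.01 they were 637 and 542, 300 and 157, and 4 and 6, and with a change of at least 1 they were 159 and 78, 55 and 45, and 10 and 19. Fitting only the 4 arrays compared gave 875 and 899 at 8 h against untreated and 1379 and 991 against 4 h. The genotype difference was called for 64 and 89 genes in the deposited processed values, 41 and 69 with an offset of 50, and 15 and 30 with the mean of all probes. Leaving out 1 array at a time gave 653 to 1075 higher and 559 to 1010 lower against untreated, 182 to 429 and 98 to 265 against 4 h, and 4 to 15 and 5 to 20 between genotypes. In a fit with the replicate block the counts were 1165 and 1218, 777 and 475, and 10 and 14. The replicate numbers of the untreated and 8 h arrays correlated at -0.25 in their deviations, and the crossed pairing, chosen after seeing the data, gave 1473 and 1670 on the 4 arrays alone. Other counts stayed within 1.5 times. Of 135 single genes named, 96 kept their direction and call with the probe score as covariate, 37 lost the call, and 132 kept both with the replicate block. The 8 h change reversed for Hif1a (-0.13) and H2ac1 (-0.024) with the probe score as covariate and for Lims2 (0.022) with the mean of all probes. Among arrays left out it ranged from -0.34 to 0.11 for Trp73, from -0.037 to 0.39 for H2ac1 and from -0.035 to 0.031 for Lims2. Dim probes near background and 2 arrays a group limit all values.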

Other observations

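Of 22 G1 cyclins, CDK inhibitors and members of the E2F and RB families, 4 were called higher and none lower at 8 h, with a median of 0.04. E2f1, a transcription factor of the G1 to S transition, had signals of 11.07 and 10.76 untreated and 11.72 and 11.77 at 8 h (0.83 ± 0.11) and was the member also called with the probe score as covariate. Ccng2, a cyclin associated with cell cycle exit, changed by 0.79 ± 0.16, and Ccnd3, a D-type cyclin, by 0.49 ± 0.10. Cdkn1b, which encodes the CDK inhibitor p27, had signals of 6.78 and 7.15 untreated and 8.02 and 7.57 at 8 h, and its change of 0.83 ± 0.26 was 0.05 with the probe score as covariate.

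Of 26 axon guidance ligands and receptors, which also guide blood vessels, 5 were called higher (19.2%) and 2 lower (7.69%) at 8 h, against 11.6% and 12.3% of all genes. With the probe score as covariate 3 were called higher and none lower. At 8 h 8 were called higher than at 4 h, against 8.62% of all genes. None of these 8 was among the 4 genes called higher than at 4 h with the probe score as covariate. Sema6a, a transmembrane semaphorin, went from 6.25 and 5.79 to 6.96 and 6.98 (0.95 ± 0.19). Plxnd1, a semaphorin receptor of endothelial cells, changed by 0.47 ± 0.10, and Nrp1, a coreceptor of semaphorins and VEGF, by -0.38 ± 0.096. Tfrc, the transferrin receptor, was called higher (0.33 ± 0.11) among 13 metallothionein and iron genes, of which 2 were called lower. None of the 13 was called with the probe score as covariate. Of 13 cytosolic heat shock genes 1 was called higher and 2 lower, and among the latter the chaperone Hsph1 fell by 0.61 on the log2 scale (SE 0.12). No heat shock gene was called with that covariate either.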
